A study of Saccharomyces cerevisiae with 4 samples.

Results

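The genes described here encode 7 enzymes of sulfate assimilation in the budding yeast Saccharomyces cerevisiae, namely MET3, MET14, MET5, MET10, MET1, MET8 and MET17. They were chosen by gene name, out of 5996 nuclear protein-coding genes with 1000 bp of annotated sequence upstream. The values are the deposited ChIP-nexus peaks of 2 transcription factors, Pho4 and Cbf1, that overlapped those 1000 bp by at least 1 bp. In ChIP-nexus, immunoprecipitated chromatin is digested with an exonuclease that stops near the crosslinked protein, which narrows the mapped position. The groups were 2 libraries of Pho4 (genotype PHO4::9myc::TRP1, strain W303 Z1441) and 2 libraries of Cbf1 (genotype CBF1::9myc::TRP1, strain W303 Z1497), each precipitated with the same anti-Myc antibody. Per the labels' protocols, all 4 shared growth in rich medium (YPD) at 25 °C and then 2 h at 25 °C in phosphate-free medium, given as the step that induces Pho4. Glucose at 2% and crosslinking in 1% formaldehyde for 15 min were also common to all 4. Each factor was tagged in a single named strain, and no input or untagged library was used here. The labels do not say that libraries of equal factor came from separate cultures, so p-values measure only the spread between these libraries, which may be technical.

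Yeast takes up sulfate and builds it into methionine and cysteine in a chain of steps. Sulfate is first activated by ATP sulfurylase (Met3) and phosphorylated by APS kinase (Met14), then reduced to sulfite and on to sulfide. Sulfide is joined to O-acetylhomoserine by Met17. The genes are known targets of Cbf1, a basic helix-loop-helix protein that binds the E-box CACGTG and helps to bring the activator Met4 to these promoters, together with Met28 and with Met31 or Met32. Pho4 is a helix-loop-helix protein of phosphate starvation that binds the same core. The base beside the core is known to separate them, since T directly 5′ of the core disfavours Pho4.

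Every one of the 7 upstream windows held CACGTG, against 10.8% of all 5996 windows. The windows of MET3, MET5 and MET10 each held 2 copies, and 1.33% of all windows held 2 or more. All 10 sites had T directly 5′ of the core on at least 1 strand, and 2 of the 10, at MET3 and MET14, had it on both. Of the 533 CACGTG sites upstream of any gene, 65.3% had such a T flank. The centres of the 10 sites lay between 206.5 and 374.5 bp upstream of the annotated starts. The limits of that band were taken from these sites, so all 10 lie in it by construction. It held 25.6% of all CACGTG positions upstream of genes, a share that cannot show whether the 10 cluster. AAACTGTG, the core bound by Met31 and Met32, was searched on both strands and lay in 3 of the 7 windows, at MET3, MET1 and MET17, against 5.04% of all windows. Both motifs occurred together in 0.784% of windows. A match describes the sequence of the reference strain and does not show a bound site.

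The stretches that hold these motifs are printed because the summits below are measured against them. They are from the R64 (sacCer3) sequence of strain S288C, 5′ to 3′ on the strand of the gene. Capitals mark CACGTG with any T flank (read as A after the core when T is on the other strand) and AAACTGTG or its reverse complement. The stretches are chrX:455847-456009 (plus strand) for MET3, chrXI:439593-439628 (minus strand) for MET14 and chrX:683569-683633 (minus strand) for MET5. They are chrVI:213048-213101 for MET10, chrXI:571329-571408 for MET1, chrII:650144-650179 for MET8 and chrXII:732227-732343 for MET17, all on the plus strand.
MET3: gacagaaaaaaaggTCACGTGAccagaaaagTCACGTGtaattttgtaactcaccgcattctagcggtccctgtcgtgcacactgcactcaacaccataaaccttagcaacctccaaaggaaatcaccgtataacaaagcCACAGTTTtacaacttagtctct
MET14: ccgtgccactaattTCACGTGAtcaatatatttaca
MET5: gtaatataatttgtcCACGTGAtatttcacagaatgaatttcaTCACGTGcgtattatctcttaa
MET10: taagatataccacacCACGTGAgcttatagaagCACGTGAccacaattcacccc
MET1: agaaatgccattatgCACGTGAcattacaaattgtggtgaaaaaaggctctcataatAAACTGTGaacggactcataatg
MET8: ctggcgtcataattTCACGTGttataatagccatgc
MET17: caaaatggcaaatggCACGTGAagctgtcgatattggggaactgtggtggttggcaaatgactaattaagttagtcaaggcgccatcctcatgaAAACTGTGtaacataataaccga

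Pho4 replicate 1 listed 2026 peaks and replicate 2 listed 2210, while the Cbf1 replicates listed 933 and 1575. With chromosome names in text order, Cbf1 replicate 1 had no peak listed past chromosome VII, so its list reached only MET10 on chromosome VI and MET8 on chromosome II. The other 3 lists reached all 7 genes. The median summit height implied by fold and p was 72 and 45 reads for Pho4, and for Cbf1 it was 65 and 50 reads, in replicate order. Cbf1 also binds centromeres, and a peak lay over all 8 and all 13 centromeres that its lists reached, against 2 of 13 and 1 of 16 for Pho4.

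A Pho4 peak overlapped the window of all 7 genes in replicate 1 and of 6 genes in replicate 2, all but MET8. Among all covered genes, 41.5% and 37.8% had such a Pho4 peak. A Cbf1 peak overlapped 6 of the 7 windows in replicate 2, again all but MET8, against 28.6% of covered genes. In Cbf1 replicate 1 it overlapped 1 of the 2 windows reached, that of MET10, against 31% of covered genes. Peaks of all 3 lists that reach every gene overlapped 6 of the 7 windows, against 18.8% of covered genes. Such peaks need not mark the same site. At MET3 the only Pho4 replicate 2 peak had its summit outside the window, 1174 bp upstream. At MET5 the Cbf1 replicate 2 summit also lay outside it, 1185 bp upstream. Neighbouring genes can share a window and a peak, so genes are not independent counts. When the summit itself had to lie in the window, Pho4 replicate 1 kept 7 genes and replicate 2 kept 5, against 37.4% and 34.2% of covered genes. Cbf1 replicate 1 then had 1 gene and replicate 2 had 5, against 25.4% and 23.4%.

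**Figure D1:**
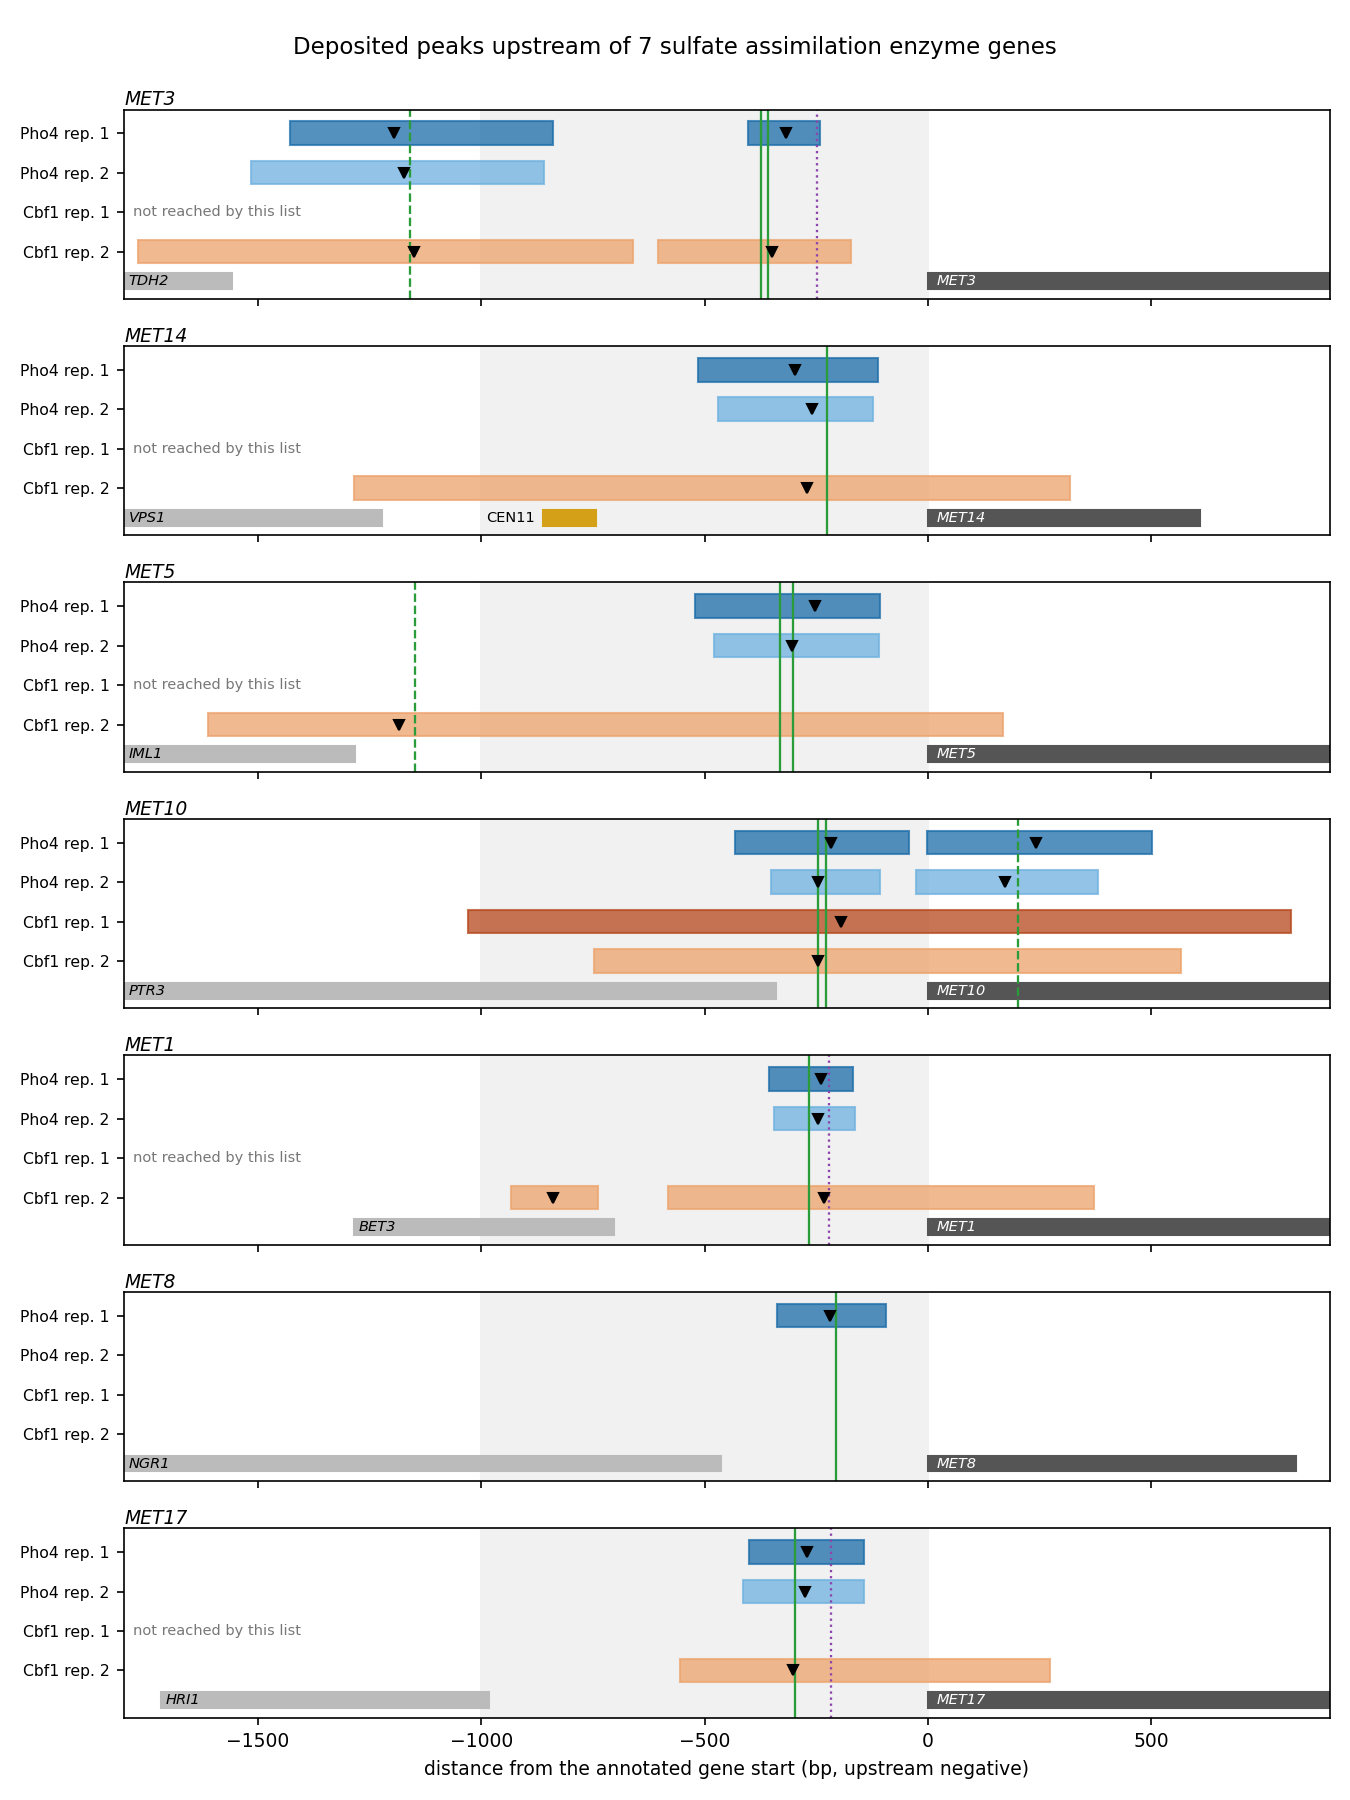
Peaks that overlap the 1000 bp upstream (shaded) of each gene, drawn as bars per library against distance from the annotated start in bp, with triangles at summits. Solid green lines mark E-boxes inside the window, dashed green lines E-boxes outside it, dotted purple lines the Met31/Met32 motif, dark boxes the gene, light grey boxes the next gene upstream and the gold box CEN11. MET8 carries a bar in Pho4 replicate 1 alone, and the highest Cbf1 bars at MET3, MET14, MET5 and MET10 span more than 1000 bp.

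MET3 (YJR010W, chromosome X, 456239 to 457774, plus strand), the gene of ATP sulfurylase, had 2 peaks in its window in Pho4 replicate 1 and in Cbf1 replicate 2. The peak over its pair of E-boxes had an authors' fold of 6.63 in Cbf1 replicate 2, the summit height over the local background, and ranked 244 of 1575. Its summit lay 350 bp upstream of the start and 7.5 bp from the nearer E-box centre. In Pho4 replicate 1 the peak there had a fold of 2.40 and ranked 1475 of 2026, with the summit 318 bp upstream and 39.5 bp from the nearer centre. Its implied height was 102 reads (95% exact Poisson interval 83.2 to 124, counting error only) over a background of 41.9 reads. Pho4 replicate 2 listed no peak over these E-boxes, and its nearest summit lay 799.5 bp from the nearer of them. A peak over the MET3 E-boxes was therefore listed in the single Cbf1 library that reaches them and in 1 of 2 Pho4 libraries.

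The other peak that reached into the MET3 window was listed in all 3 libraries and was the higher where both were listed. Its summit lay outside the window, between MET3 and TDH2, a glyceraldehyde-3-phosphate dehydrogenase gene that is transcribed away from it. Its fold was 4.43 and 4.62 in the Pho4 replicates, with ranks 603 of 2026 and 778 of 2210, and 18.3 in Cbf1 replicate 2, with rank 57 of 1575. It was 590 and 656 bp wide for Pho4 and 1109 bp for Cbf1, while the peaks over the MET3 E-boxes were 162 bp (Pho4 replicate 1) and 434 bp (Cbf1 replicate 2) wide. The summits lay 1196, 1174 and 1151 bp upstream of MET3, and 362, 384 and 407 bp upstream of TDH2. They lay 36.5, 14.5 and 8.5 bp from a further E-box, 1159.5 bp upstream of MET3 and 398.5 bp upstream of TDH2, with T on 1 strand. This site is at chrX:455062-455097, printed on the plus strand with the core and its T flank in capitals, because it carries the highest Cbf1 peak that meets the 7 windows.
MET3 to TDH2: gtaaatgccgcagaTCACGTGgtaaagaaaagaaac

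MET14 (YKL001C, chromosome XI, 438777 to 439385, minus strand) encodes APS kinase and lies beside the centromere. Its single E-box, with T on both strands, is 225.5 bp upstream. CEN11, at 440129 to 440246, lies 744 to 861 bp upstream of the gene and so inside the window. The fold was 7.76 and 7.60 in Pho4 replicates 1 and 2, with ranks 260 of 2026 and 374 of 2210, and 8.32 in Cbf1 replicate 2, with rank 194 of 1575. The Pho4 peaks were 404 and 349 bp wide and ended 230 and 274 bp short of CEN11. The Cbf1 peak was 1605 bp wide, wider than 99.2% of its list, and ran from 319 bp inside MET14 to 1285 bp upstream, over the whole of CEN11. Its summit lay 271 bp upstream, 45.5 bp from the E-box centre and 473 bp from the near edge of CEN11. Pho4 summits lay 298 and 260 bp upstream, 72.5 and 34.5 bp from the E-box. A peak has 1 summit, so the share of this Cbf1 peak that belongs to CEN11 was not tested.

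MET5 (YJR137C, chromosome X, 678957 to 683285, minus strand) encodes the beta subunit of sulfite reductase. Both of its E-boxes, 301.5 and 330.5 bp upstream, lay inside a Pho4 peak in both replicates. The fold was 8.76 and 9.36, with ranks 222 of 2026 and 272 of 2210, the highest of the 7 genes in each Pho4 list. The Pho4 summits lay 253 and 305 bp upstream, 48.5 and 3.5 bp from the nearer E-box. Implied heights were 216 reads (interval 188 to 247) over 23.8 and 112 reads (92.2 to 135) over 11.1. In Cbf1 replicate 2 a peak of 1781 bp covered the same E-boxes, with a fold of 10.2 and rank 155 of 1575. Its summit lay 1185 bp upstream of MET5 and 97 bp upstream of IML1, the divergent neighbour. The E-box nearest to that summit, at 37.5 bp, lies 1147.5 bp upstream of MET5 and has T on both strands, while the nearest Pho4 summits lay 894.5 and 842.5 bp from it. It is printed from chrX:684415-684450 on the minus strand, with the core and flanks in capitals, because the highest point of the Cbf1 peak lies there and not at MET5.
MET5 to IML1: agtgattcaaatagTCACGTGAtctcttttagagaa

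MET10 (YFR030W, chromosome VI, 213312 to 216419, plus strand) encodes the alpha subunit of sulfite reductase. It had a peak in all 4 libraries, which only MET10 and MET8 could have, since the Cbf1 replicate 1 list reaches no other of the 7. Genes with a peak in all 4 lists made up 17.1% of those reached by all 4. The fold of the highest peak was 6.61 and 5.84 in the Pho4 replicates, with ranks 335 of 2026 and 544 of 2210. It was 5.01 and 9.56 in the Cbf1 replicates, with ranks 111 of 933 and 165 of 1575. All 4 summits lay near the pair of E-boxes at 228.5 and 246.5 bp, with Pho4 summits 216 and 245 bp from the start and Cbf1 summits at 194 and 246 bp. The mean was 230.5 ± 20.5 bp for Pho4 and 220 ± 36.8 bp for Cbf1 (SD, n = 2 each). The difference of -10.5 bp was within the replicate spread, with an exact permutation p (two-sided) of 1.

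Pho4 peaks at MET10 were 391 and 244 bp wide and Cbf1 peaks 1844 and 1314 bp. Both Cbf1 peaks were wider than both Pho4 peaks. Both Pho4 lists held a second peak over the start of the coding sequence, with folds of 4.15 and 4.78, summits 242 and 172 bp inside MET10 and only 2 and 27 bp of overlap with the window. An E-box with T on 1 strand lies 201.5 bp inside the coding sequence, 40.5 and 29.5 bp from those summits. Both Cbf1 peaks ran over this site too, with their summits 395.5 and 447.5 bp away from it. It is printed from chrVI:213496-213531, plus strand, because these Pho4 peaks, which the window rule counts only through their edges, have their summits beside it.
MET10 coding sequence: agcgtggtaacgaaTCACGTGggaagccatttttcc

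MET1 and MET8 make siroheme, the cofactor of sulfite reductase. MET1 (YKR069W, chromosome XI, 571612 to 573393, plus strand) encodes the methyltransferase of the pathway and has an E-box 265.5 bp and AAACTGTG 222.5 bp upstream. The Cbf1 replicate 2 peak there had a fold of 12.8, rank 124 of 1575 and an implied height of 431 reads (interval 391 to 474) over 32.7. The Pho4 peaks had folds of 5.09 and 3.74 and ranks 489 of 2026 and 1052 of 2210. The Pho4 replicate 2 peak had the lowest implied height among the 7 genes' peaks, 40 reads (interval 28.6 to 54.5) over 9.98. The Pho4 summits lay 239 and 247 bp upstream and the Cbf1 summit 233 bp upstream, all between the start and the E-box. The Cbf1 to Pho4 difference of -10 bp had an exact permutation p of 0.667. A second Cbf1 replicate 2 peak, of fold 2.01 and rank 1378, had its summit 136 bp inside BET3, the divergent neighbour.

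MET8 (YBR213W, chromosome II, 650368 to 651192, plus strand) encodes the dehydrogenase and ferrochelatase that completes siroheme. It had a peak only in Pho4 replicate 1, with a fold of 4.68, rank 555 of 2026, a width of 245 bp and an implied height of 105 reads (interval 85.9 to 127) over 21.6. The summit lay 219 bp upstream and 12.5 bp from its E-box, which has T on 1 strand. Pho4 replicate 2 and both Cbf1 lists held no peak in the window. Their nearest peaks upstream began 5419, 5211 and 5144 bp away. On the downstream side they began 997, 17540 and 17755 bp past the MET8 start. The Pho4 replicate 2 peak there had a fold of 3.91 and rank 982. Peaks in Pho4 replicate 1 alone of the 4 lists were found at 4.55% of the genes reached by all 4. The lists give no value where no peak was called, so a lower enrichment at MET8 in the other 3 libraries was not detectable from them. Of all upstream E-boxes with T on 1 strand, 56.8% and 54.6% had a Pho4 summit within 50 bp in replicates 1 and 2, and 55.7% and 61.8% a Cbf1 summit.

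MET17 (YLR303W, chromosome XII, 732542 to 733876, plus strand) encodes O-acetylhomoserine sulfhydrylase. Its E-box, 297.5 bp upstream, lies inside the annotated open reading frame YLR302C on the other strand, and AAACTGTG lies 217.5 bp upstream. The fold was 7.71 and 8.30 in the Pho4 replicates, with ranks 264 of 2026 and 326 of 2210, and 15.5 in Cbf1 replicate 2, with rank 90 of 1575. In reads these were the tallest Pho4 peaks of the 7 genes, at 579 (interval 533 to 628) and 302 (269 to 338), and the Cbf1 peak had 989 (928 to 1053). The local backgrounds of 74.2, 35.5 and 62.9 reads were above the list medians of 22.9, 11.8 and 18.2 reads. Height in reads and fold therefore order the genes differently, since MET5 led both Pho4 lists by fold. The Pho4 summits lay 270 and 276 bp upstream, 27.5 and 21.5 bp from the E-box. The Cbf1 summit lay 302 bp upstream, 4.5 bp from it. The Pho4 mean was 273 ± 4.24 bp (SD, n = 2), 29 bp from the single Cbf1 summit, whose own spread is unknown. At MET10, the only gene with 2 Cbf1 summits, the Cbf1 SD was 36.8 bp. The exact permutation p at MET17 was 0.333, the smallest possible, and 0.667 after Benjamini-Hochberg adjustment over the 6 genes whose summits were compared. The summit differences at MET3 (-34 bp) and MET5 (906 bp) had the same exact permutation p and adjusted value, while MET14 (-8 bp) had an exact permutation p of 1.

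**Figure D2:**
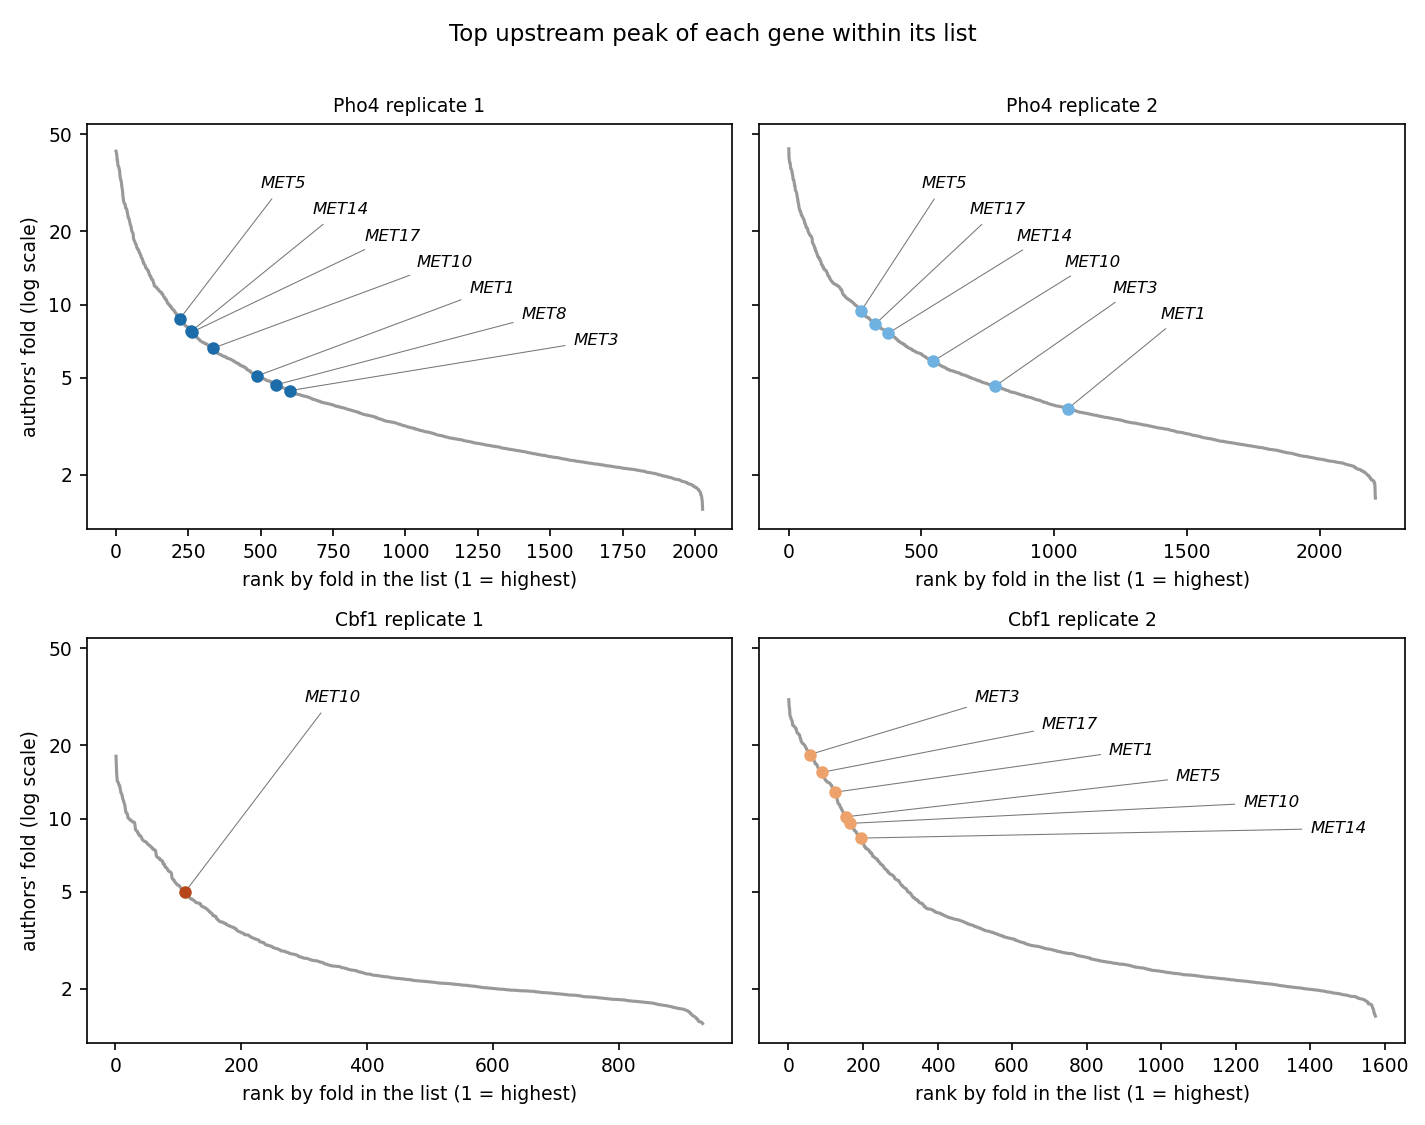
Authors' fold (log scale) against rank by fold for all peaks of each list (grey line), with the highest peak that overlaps each gene's window as a labelled point. The points run from rank 222 to 603 and from 272 to 1052 for Pho4, and from 57 to 194 for Cbf1 replicate 2.

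By fold of the highest overlapping peak, MET5, MET14, MET17 and MET10 were the first 4 in both Pho4 lists, with MET14 and MET17 in exchanged places. MET1, MET8 and MET3 followed in replicate 1, and MET3 and MET1 in replicate 2. In Cbf1 replicate 2 the order was MET3, MET17, MET1, MET5, MET10 and MET14. In each of these lists the MET3 value is the peak toward TDH2, with its summit outside the window. The peak over the MET3 E-boxes, at rank 244 in Cbf1 replicate 2, would place MET3 last there. In Pho4 replicate 1 the peak over them had rank 1475, and Pho4 replicate 2 listed none over them. Neighbours in these orders were often close, since MET14 and MET17 differed by 7.76 against 7.71 in fold in Pho4 replicate 1 and changed places in replicate 2.

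Over the genes with a peak, the median share of the list with a lower fold was 83.5% and 79.2% for Pho4, while Cbf1 replicate 2 had 91.1%. Over all genes with a peak in the window, the medians were 61.3%, 59.9% and 67.2%. At T-flanked upstream E-boxes of any gene with a summit within 50 bp, the median was 73.8% in Pho4 replicate 1 (132 sites), 78.1% in Pho4 replicate 2 (172 sites) and 93.1% in Cbf1 replicate 2 (176 sites). The 7 sites of the enzyme genes with such a summit had medians of 83.5%, 83.1% and 89.5%. Genes and sites that share a peak enter these medians more than once.

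Ranks of the highest peak were set side by side within the sequence that all compared lists reach. Cutting the lists to equal length (853 peaks for MET10 and 1566 for the others) leaves every rank as it is, so the ranks still carry the size of each list, which was 1990, 1660 and 1566 peaks for Pho4 replicates 1 and 2 and Cbf1 replicate 2 at the genes other than MET10. The rank as a percent of the list, added after seeing the data, is therefore given with each. At MET10 the highest Pho4 peaks ranked 188 and 228, and the highest Cbf1 peaks 109 and 101. These were the top 17.01% and 24.23% for Pho4 and 11.8% in both Cbf1 lists. The mean rank was 208 ± 28.3 for Pho4 and 105 ± 5.66 for Cbf1 (SD, n = 2 each), a difference of -103, and the mean percent differed by -8.78. Both differences exceeded the replicate spread, each with an exact permutation p of 0.333 (two-sided), the smallest possible here.

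At MET17 the single Cbf1 rank was 90, against 262 and 242 for Pho4, or the top 5.75% against 13.2% and 14.6%. At MET1 it was 124 against 480 and 784, or 7.92% against 24.1% and 47.2%. As a percent of the list, though not by rank, the Pho4 libraries differed there by nearly as much as the factors did. At MET14 it was 194 against 258 and 276, but 12.39% against 12.96% and 16.63%, so that Pho4 replicate 1 and Cbf1 were close as a share of their lists. At MET3 it was 57 against 589 and 574, or 3.64% against 29.6% and 34.6%, all for the peak toward TDH2 with its summit outside the window. With the summit inside the window, MET3 had 1 library of each factor and a rank difference of -1201, with no test possible. At MET5 it was 155 against 220 and 207, or 9.90% against 11.1% and 12.5%, but the Cbf1 summit lay near IML1 and the Pho4 summits at the MET5 E-boxes, so these are not ranks of the same site. Each exact permutation test of a rank difference gave 0.333, the smallest possible, and 0.333 after Benjamini-Hochberg adjustment over the 6 genes. For the percent, the exact permutation p was 0.333 at MET3, MET10 and MET17 and 0.667 at MET14, MET5 and MET1. Ranking by −log10 q instead of fold kept each sign but moved the difference to -67.5 from -162 at MET17, to -131 from -58.5 at MET5 and to -137 from -73 at MET14. MET8 had no Cbf1 peak, and so no rank to compare. A rank places a peak among the other peaks of its list and does not measure the amount of bound protein.

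**Figure D3:**
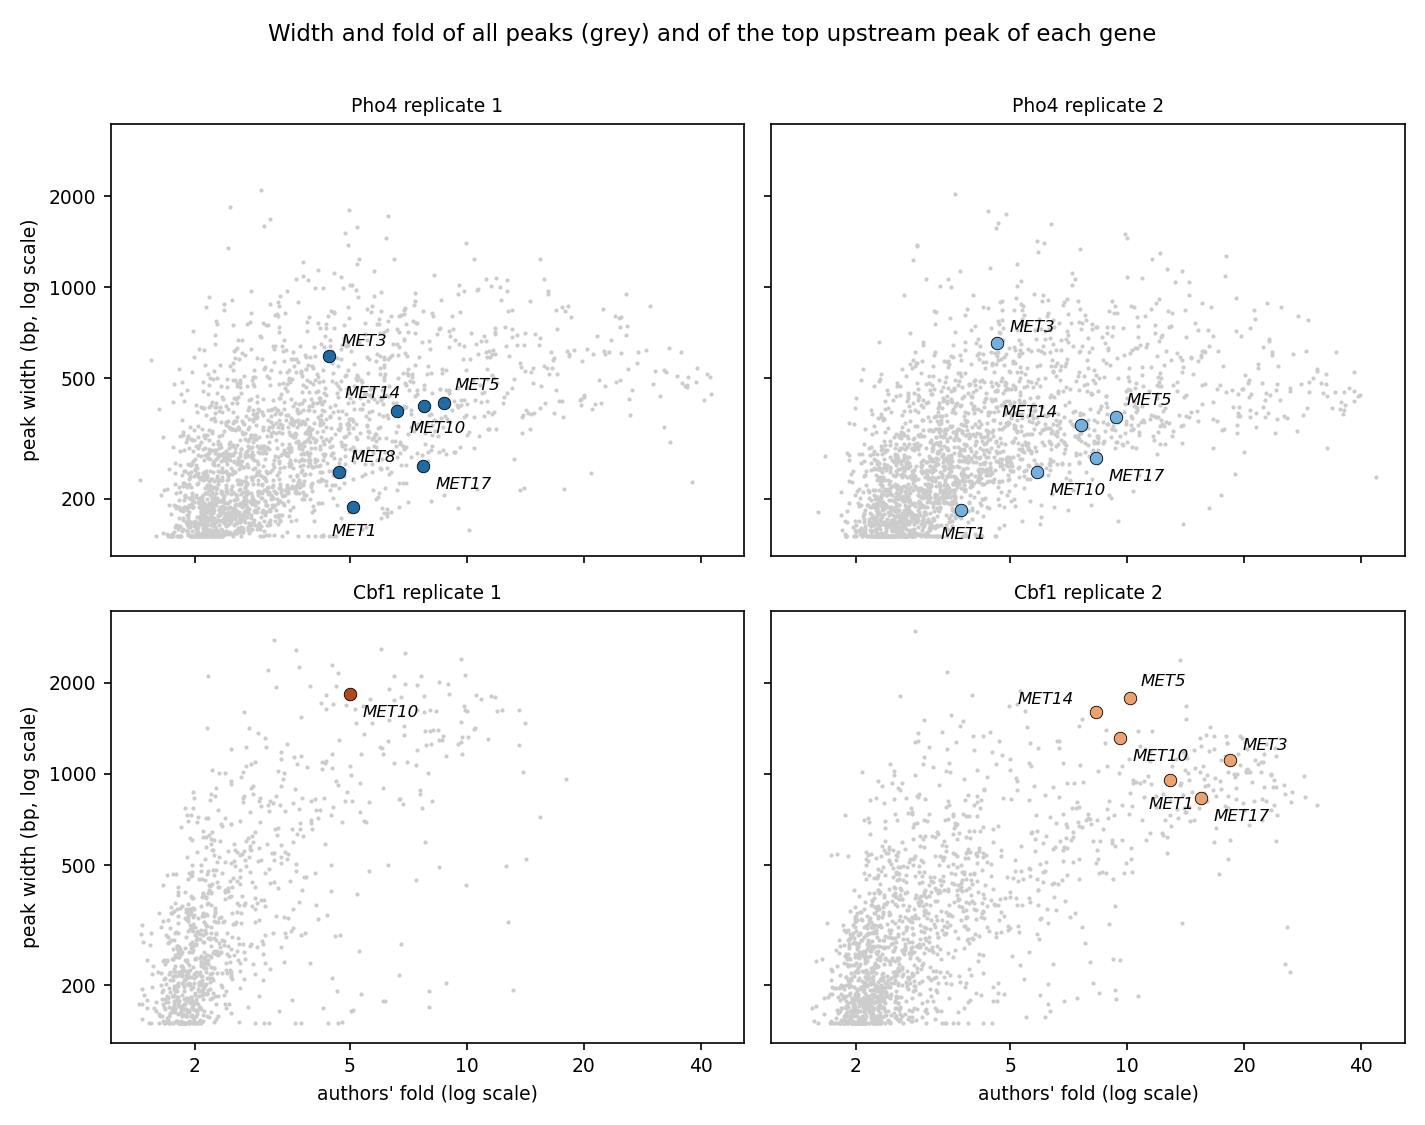
Peak width in bp against authors' fold, both on log scales, for all peaks of each list (grey) and the highest peak overlapping each gene's window (labelled). The Cbf1 points lie between 830 and 1844 bp, and the Pho4 points between 183 and 656 bp.

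Cbf1 peaks at these genes were wide. The highest peaks had a median width of 1211.5 bp in Cbf1 replicate 2, against 411 bp over all genes with a peak in that list. In the Pho4 lists the medians were 391 and 310.5 bp, against 341 and 331 bp. At 4 of the genes, MET3, MET14, MET5 and MET10, the highest Cbf1 replicate 2 peak exceeded 1000 bp. Of all peaks of that list, low ones included, 7.49% did. The share among the highest peaks of all genes was not computed. The MET14 peak ran over CEN11, and the MET5 peak had its summit near IML1. The MET3 peak here is the one toward TDH2, and that over the MET3 E-boxes was 434 bp wide. The highest Cbf1 replicate 2 peaks at MET1 and MET17, of 955 and 830 bp, were still wider than the Pho4 peaks there. Those were 188 and 183 bp wide at MET1 and 257 and 272 bp at MET17. Among the other sulfur genes described below, Cbf1 replicate 2 peaks were 1039 to 1340 bp wide at SUL2, CYS3, CYS4 and GSH1. The rest with a peak in that list had widths of 171 to 989 bp. Width rose with fold across all peaks of each list, with Spearman's rho between 0.599 and 0.675 over 933 to 2210 peaks, and peaks are not independent replicates. The part of fold in these widths was not tested.

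The 10 E-boxes can also be read one by one against the summits. All 10 lay inside a peak in Pho4 replicate 1, 7 of 10 in Pho4 replicate 2, 9 of 10 in Cbf1 replicate 2 and 2 of the 3 reached in Cbf1 replicate 1. Of all T-flanked upstream E-boxes, 69.3% and 65.2% lay inside a Pho4 peak in replicates 1 and 2, and 78.7% and 83.3% inside a Cbf1 peak. A summit lay within 50 bp of 7 of the 10 in each of the 3 lists that reach them all. Counted by gene, that was 6 of 7 in Pho4 replicate 1, all but MET14, and 5 of 7 in Pho4 replicate 2 and in Cbf1 replicate 2. Cbf1 replicate 1 had it at 1 of 2 genes. Within 25 bp the counts by gene were 2 and 4 in Pho4 replicates 1 and 2, and 0 and 3 in Cbf1 replicates 1 and 2. Shares over all genes or sites at 25 bp were not computed, nor were shares by gene at 50 bp. The counts by gene therefore have no matching share over all genes, and a gene with 2 E-boxes was counted through either. Counted by site, among all T-flanked upstream E-boxes, 48.9% and 49.4% had a Pho4 summit within 50 bp in replicates 1 and 2, and 58.9% and 65.2% a Cbf1 summit. For E-boxes without T flank the shares were 81.6% and 85.4% for Pho4, against 34.1% and 38.2% for Cbf1. Both sites with T on both strands had a Cbf1 replicate 2 summit within 50 bp, as did 74.6% of all such upstream sites (68.6% in Cbf1 replicate 1). In Pho4 replicate 1 neither had one, with the nearest summits 72.5 bp away at MET14 and 56.5 bp at MET3, against 26.8% of all such sites. Both nevertheless lay inside a peak of that list. The same MET3 summit lay 39.5 bp from the other MET3 E-box, which was counted, so the 50 bp limit separates these neighbours. In Pho4 replicate 2 MET14 had one, at 34.5 bp, and MET3 had none, against 34.1%.

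Other genes of sulfur metabolism were read by the same rule from a list of 19, of which the lists reached 14, 19, 10 and 14. A peak overlapped the window of 13 and 17 of them in Pho4 replicates 1 and 2, and of 9 and 11 in Cbf1 replicates 1 and 2, against the shares of all genes given above. Of the 19, 15 had a peak in every list that reached them, as did 22.8% of all genes. For MET2, MET4, MET16 and MET22 that was Pho4 replicate 2 alone. Of the 14 that 2 or more lists reached, 11 had a peak in each, against 17.8% of all such genes. MET16, whose product reduces PAPS between the steps of Met14 and sulfite reductase, had a fold of 3.59 and rank 1109 of 2210 there. MET6, the methionine synthase gene, had the highest Cbf1 values of the list, with folds of 12.4 and 24.3 and rank 11 in both Cbf1 lists, and folds of 5.89 and 7.89 in Pho4. The others were the cofactor gene MET28, the ubiquitin ligase gene MET30, the activator gene MET32, the permease genes MUP1 and SUL2, and CYS3, CYS4, SAM1, SAM2 and GSH1. Not all of these peaks ranked high. SAM1 ranked 1445 of 2026 and 2098 of 2210 in Pho4, and 1263 of 1575 in Cbf1 replicate 2. MUP1 ranked 506 of 2026 and 472 of 2210 in Pho4, but 872 of 933 in Cbf1 replicate 1. The MUP1 summit in Cbf1 replicate 2 lay 1061 bp upstream, outside the window. SUL1, the other sulfate permease gene, had peaks in both Pho4 lists (folds 2.36 and 3.22) and none in either Cbf1 list, while SUL2 had folds of 7.94 and 10.1 in Pho4 and 19.5 in Cbf1 replicate 2.

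**Figure D4:**
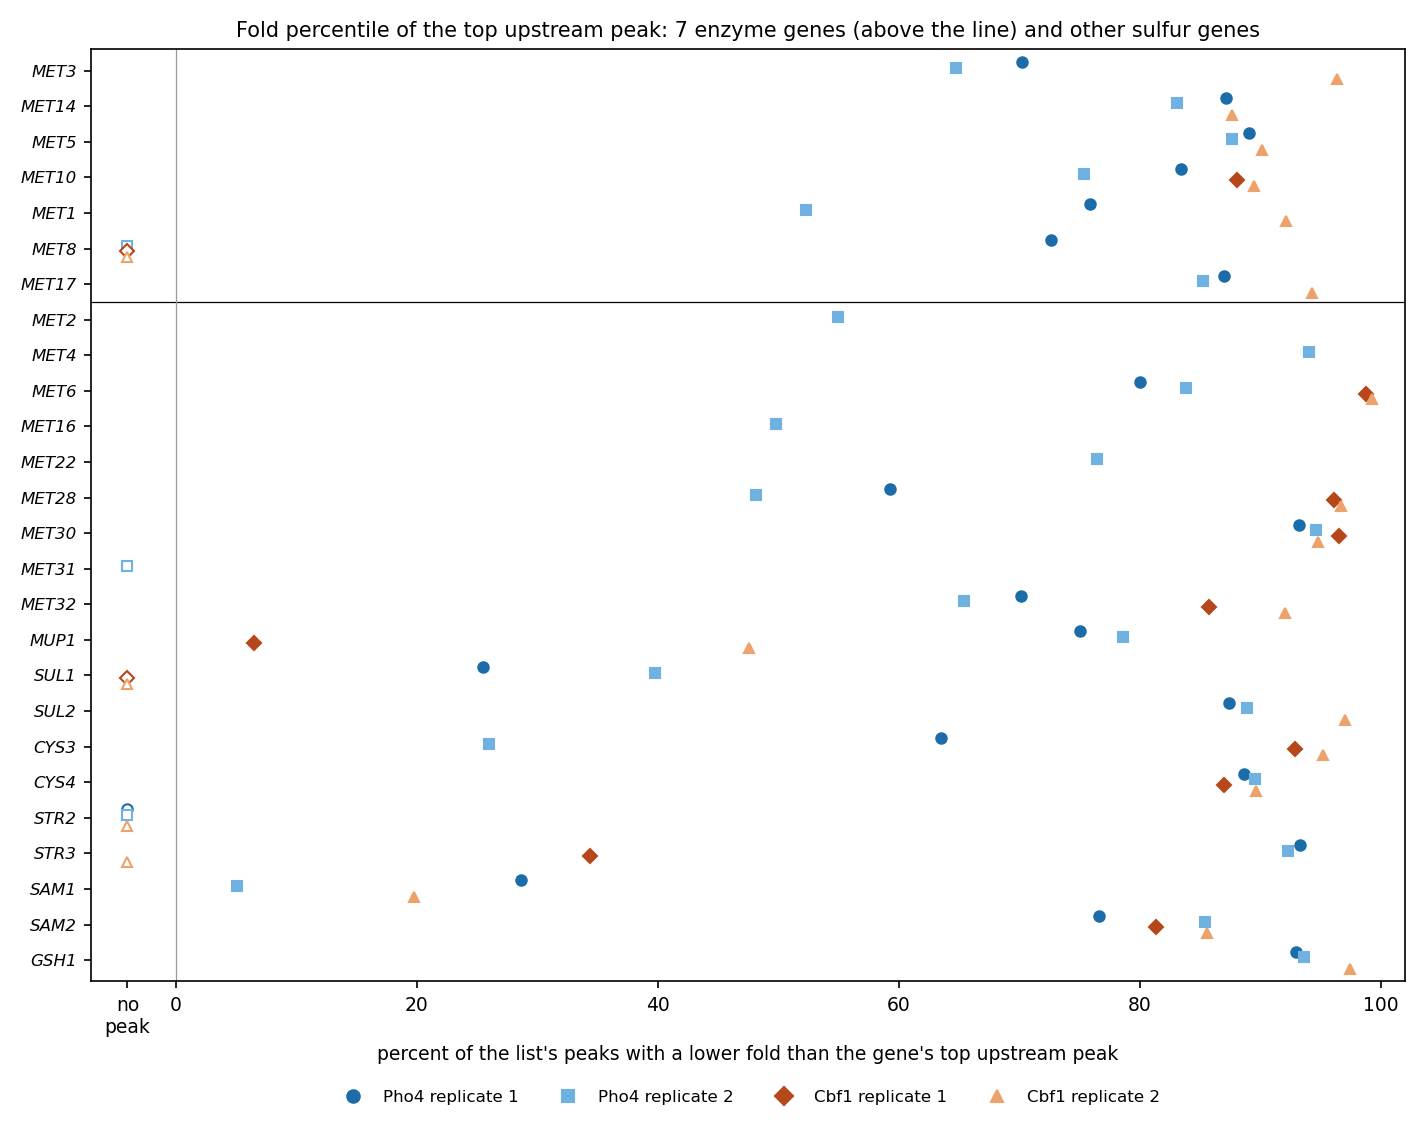
Percent of each list's peaks with a lower fold than the highest peak overlapping the gene's window, per library, for the 7 enzyme genes (above the line) and 19 other sulfur genes. Open symbols at the left mark genes that a list reaches but gives no peak, and a library without a symbol does not reach the gene. Among the enzyme genes, MET8 has open symbols for Pho4 replicate 2 and both Cbf1 libraries.

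The genes with the most similar pattern were sought outside the 7, by the distance between a gene's shares of peaks with a lower fold and the median of the 7 genes, over the 3 lists that reach them all. The median was 83.5%, 75.4% and 90.2% in Pho4 replicates 1 and 2 and Cbf1 replicate 2, with an absent peak set to 0. BUD27 and EPL1, which share a peak, came first with 83.7%, 79.4% and 90.0%, at a distance of 4.03. HAP4, which encodes a subunit of a transcription activator of respiration, followed with 82.0%, 75.3% and 85.3%, at a distance of 5.03.

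At the edges of the 1000 bp rule, the least overlap that counted was the 2 bp of the Pho4 replicate 1 peak over the MET10 start. The nearest peaks beyond the windows were a Cbf1 replicate 1 peak of fold 1.47 that began 1138 bp upstream of MET10 and a Cbf1 replicate 2 peak of fold 1.54 that began 1355 bp upstream of MET14, the latter at the last rank of its list.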

How the data were processed

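Pho4 and Cbf1 binding was measured by ChIP-nexus in 4 libraries, and the deposited files are narrowPeak lists, 1 per library. The submitters' processing notes name cutadapt 1.8.1, Bowtie 1.1.2, SAMtools 1.3.1, bedtools, MACS2 2.1.1 and the build sacCer3, the same assembly as the R64 reference used here, without roles or settings. The fold column deposited by the authors is a ratio of summit height to local background. The deposited −log10 p and −log10 q columns came from the authors' peak caller, as did the deposited score, which was not analysed, and the summit offset. No peak ran past the end of an R64 chromosome.

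Lists end at different places, so a gene counted as reached when its window lay before the last peak in file order. Coordinates are 1-based. The summit height k and background b were solved from fold = (k + 1)/(b + 1) and the Poisson p, with a match for 98.7% to 99.8% of peaks within 0.0001 plus 2e-05 of −log10 p, and for 1.22% to 1.53% when p was shuffled among peaks. Read totals are not part of the lists, and intervals (95%) cover counting error only. Ranks and summit positions were compared between factors by two-sided exact permutation over libraries, which cannot go below 0.33 with 2 against 2 or 2 against 1. Window searches and height solving were tested on simulated data. All 7 genes were named in full. Of the 19 other sulfur genes, the rule names the 15 with a peak in every list that reached them. SUL1 is outside that rule and was chosen after its values were seen. The genes and lists were chosen with earlier results of these data known. Alternatives were windows of 500 bp, summit or 50 bp overlap rules, only peaks in the upper 50% by −log10 q, no centromere peaks, ranking by −log10 q, lists at their own length or limited to shared sequence, the peak nearest the start, reaches of 25 and 100 bp, a replicate block and each library left out. Ranks of peaks with the summit inside the window and ranks as a percent of the list were added after seeing the data. Python 3.11.15, NumPy 2.4.6, SciPy 1.17.1 and matplotlib 3.10.9 were used.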

Additional observations from a re-analysis of the deposited data

How the results depend on the processing

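The counts of genes with a peak in each library stayed within 1.5 times the main count under every alternative window, overlap, threshold and centromere rule tried. The Cbf1 minus Pho4 mean count over MET8 and MET10, -0.5, was 0 without Pho4 replicate 1 and -1 without Pho4 replicate 2, since MET8 has a peak in the former alone (range -1 to 0). Keeping only peaks in the upper 50% by −log10 q lowered the median share of peaks with a lower fold to 67.4% and 58.8% (Pho4 replicates 1 and 2), 76.6% and 82.3% (Cbf1 replicates 1 and 2), because the lower peaks are removed. Ranking by −log10 q raised Cbf1 replicate 1 to 92.7% from 88.1%. The Cbf1 replicate 1 values here are those of MET10 alone, not medians over several genes. With a reach of 25 bp, genes with a summit near an E-box fell from 6 to 2 in Pho4 replicate 1 and from 5 to 4 in Pho4 replicate 2. They fell from 1 to 0 in Cbf1 replicate 1 and from 5 to 3 in Cbf1 replicate 2. The cause of these falls was not tested. With a reach of 100 bp, Pho4 replicate 1 rose to 7 and the counts of the other libraries were unchanged. Shares of all genes with such a summit were not computed at any of these reaches. All 38 alternative rank differences kept the main sign, but the size moved by over 1.5 times at MET17, MET5 and MET14 with ranking by −log10 q. Equal list length changed no rank. Rank as a percent of the list, added after seeing the data, gave differences from -28.4 (MET3) to -1.86 (MET5). The summit-in-window rule, also added then, gave -1201 at MET3 and no value at MET5. Leave-one-out ranges were -660 to -356 ranks at MET1, -532 to -517 at MET3, -82 to -64 at MET14, -65 to -52 at MET5, -123 to -83 at MET10 and -172 to -152 at MET17. For summit position, the sign turned at MET14 without Pho4 replicate 1 (11 bp, range -27 to 11). At MET10 it turned without Pho4 replicate 2 (4 bp) and without Cbf1 replicate 1 (15.5 bp), with a range of -36.5 to 15.5, and with the summit nearest the start (198 bp), which takes the Pho4 replicate 2 peak inside the coding sequence. At MET3 the summit nearest the start gave -396 bp. The ranges were -45 to -23 bp at MET3, 880 to 932 at MET5, -14 to -6 at MET1 and 26 to 32 at MET17. Replicate numbers are shared only as numbers, and deviations of same-numbered libraries had a correlation of -0.0652 over 303 loci. The replicate block left the MET10 rank difference at -103, the MET10 summit difference at -10.5 bp and the count difference at -0.5. Depth limits what a list can hold, and a gene without a peak has no value.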
